A study of Rattus norvegicus with 19 samples.

Results

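Transcriptionally active putative enhancers (TAPEs) are intergenic stretches of open chromatin from which RNA is read on both strands. The regions described here are the 478 TAPEs of 27538 whose RNA was shared by cultured cortical and hippocampal neurons and was lower in cultured striatal neurons. They were chosen by their own levels. A TAPE entered if its mean over all 19 libraries was at least 0.02 CPKM (reads per kilobase of TAPE and per megaread of the library), if its cortical mean and its hippocampal mean were each at least 2 times its striatal mean, and if these means were less than 2-fold apart. Of the 5017 TAPEs at or above 0.02 CPKM, 478 (9.53%) met the rule. The difference between regions is therefore the definition of the group and is given below as a description, with no test in the libraries that chose it.

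Total RNA depleted of ribosomal RNA was sequenced from primary neuron cultures of Sprague-Dawley rat embryos. Cortex, hippocampus or striatum was taken at embryonic day 18 and cultured for 11 days, after which wells received vehicle (neurobasal medium) or potassium chloride (KCl, which depolarises neurons) for 1 h. The sample labels give 25 mM KCl, whereas the series text and the methods give 10 mM. The libraries were 3 vehicle and 3 KCl from cortex, 3 vehicle and 3 KCl from hippocampus, and 4 vehicle and 3 KCl from striatum. No genotype or transgene separated the groups. The labels do not tie wells to dams, so p-values measure the spread between these libraries. Cultures hold glia beside neurons, and in a bulk library fewer cells of a type and less RNA per cell cannot be told apart.

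Cortex and hippocampus both derive from the pallium, the dorsal telencephalon, whose principal neurons use glutamate. Their progenitors and young neurons carry a set of transcription factors that includes the bHLH proteins NEUROG2, NEUROD2 and BHLHE22 and the nuclear receptors NR2F1 and NR2F2. Striatal projection neurons derive from the ventral telencephalon and use GABA. Active enhancers are often transcribed into short-lived RNA at low level, and such RNA is commonly read as a sign of an enhancer in use.

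Library totals worked out from the deposited values were 46.4 to 72.5 megareads, and members held 9.69% to 12.5% of the reads in TAPEs in cortical and hippocampal libraries and 2.58% to 2.89% in striatal ones. A member had a median of 85.5 reads over all 19 libraries (26 to 8586), or 4.5 per library, so single values rest on few reads. Cortical vehicle replicate 3 has a cortical title and a striatal tissue label. The title set its group here. Its TAPE profile was closest to cortex, with a Pearson r of 0.83 with the other cortical libraries against 0.65 with the striatal ones. Without it the rule gave 469 TAPEs, 430 of them among the 478.

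Among the genes near members were transcription factors of the pallial programme, and the promoters of 3 of them are shown because their members lay within 17 kb and the genes themselves passed the test of the regions described below. Of the 12 pallial transcription factor genes within 100 kb of a member, 8 had a promoter in the RefSeq table (build GRCr8, 250 bases before to 50 after the annotated start, which is a different build from the Rn6 coordinates of the TAPEs). Capitals mark CAGATG or its reverse complement CATCTG, a form of the E-box bound by NEUROD and NEUROG proteins.
Neurod2 (chr10:83824228-83824527, minus strand): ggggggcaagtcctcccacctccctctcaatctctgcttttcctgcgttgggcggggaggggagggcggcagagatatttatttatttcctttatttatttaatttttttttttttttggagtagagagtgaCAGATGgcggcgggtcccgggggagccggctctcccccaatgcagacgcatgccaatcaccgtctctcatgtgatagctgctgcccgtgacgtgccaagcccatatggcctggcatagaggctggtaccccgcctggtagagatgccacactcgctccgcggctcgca
Neurog2 (chr2:218766955-218767254, plus strand): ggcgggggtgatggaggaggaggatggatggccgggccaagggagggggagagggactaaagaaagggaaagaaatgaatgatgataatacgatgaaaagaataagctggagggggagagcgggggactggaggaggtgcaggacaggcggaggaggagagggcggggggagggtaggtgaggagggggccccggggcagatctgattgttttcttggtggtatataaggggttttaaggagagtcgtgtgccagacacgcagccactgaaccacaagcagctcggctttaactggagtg
Nr2f1 (chr2:9785875-9786174, minus strand): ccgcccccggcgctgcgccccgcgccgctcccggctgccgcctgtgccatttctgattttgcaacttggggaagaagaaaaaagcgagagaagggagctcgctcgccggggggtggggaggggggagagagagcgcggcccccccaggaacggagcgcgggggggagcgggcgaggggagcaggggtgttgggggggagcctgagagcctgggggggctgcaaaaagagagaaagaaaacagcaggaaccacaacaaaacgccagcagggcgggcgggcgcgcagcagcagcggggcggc
The Neurod2 window held 1 match, which began 118 bases before the start, and the windows of Neurog2 and Nr2f1 held 0. Of the 33469 promoters held there, 16.6% had the motif on either strand, against 2 of the 8 list genes, Neurod2 and Nr4a2. The looser E-box CANNTG, which contains CAGATG, was found in 5 of the 8 and in 72.1% of all promoters. A match is a description of these letters only. TAPE sequences were not used here.

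The clearest description of the group was its level per library. Members together took 107 to 122 reads per megaread of the library in the 3 cortical vehicle libraries (mean 116 ± 7.39 SD) and 126 to 138 in the 3 hippocampal vehicle libraries (134 ± 6.35), against 29.0 to 33.6 in the 4 striatal vehicle libraries (31.3 ± 1.94). After KCl the cortical mean was 105 ± 2.96, the hippocampal 117 ± 4.89 and the striatal 27.8 ± 1.20, from 3 libraries each. No cortical or hippocampal library came near a striatal one. Between 30 and 61 members had no read in a cortical or hippocampal library, and 188 to 231 had none in a striatal library.

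**Figure D1:**
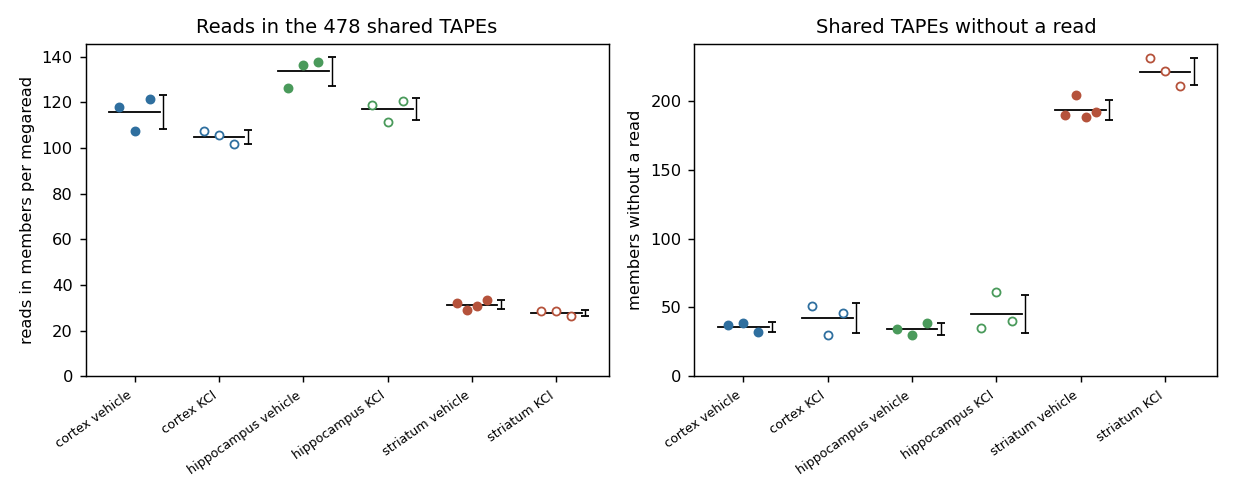
Reads per megaread of the library in the 478 shared TAPEs (left) and the number of these TAPEs without a read (right) in each of the 19 libraries, by region and treatment. Points are libraries (filled, vehicle; open, KCl), lines are means and bars are SD. Cortical and hippocampal libraries sit between 102 and 138 reads per megaread and striatal libraries between 26.4 and 33.6, which follows from the rule that chose the TAPEs.

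Most members were weak, as were most TAPEs. Their mean level had a median of 0.0364 CPKM (0.02 to 2.67), against 0.0381 for the 5017, and 317 of 478 (66.3%) were below 0.05 CPKM, against 62.7%, while 84 reached 0.1. The lower of the 2 pallial means was a median of 3.01 times the striatal mean, with 226 members between 2-fold and 3-fold and 134 at 5-fold or more, and 18 members had no striatal read at all. The pallial pair was balanced: 262 members were higher in hippocampus and 216 in cortex, with a median ratio of hippocampus to cortex of 1.05. In 76 members every cortical and hippocampal library lay above every striatal library, which held for 96 (1.91%) of the 5017 TAPEs. This count repeats the contrast of the rule.

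The limits of the rule cut through a continuum. Just inside the limit over striatum, the TAPE at chr7:76553596-76554898 near Ncald had means of 0.0571 CPKM in cortex, 0.0586 in hippocampus and 0.0285 in striatum (lower pallial mean 2.003 times striatum). Just outside it, chr15:37938600-37940431 near Xpo4 had 0.0363, 0.0369 and 0.0181 (1.9997 times). At the level limit, chr11:68299805-68301417 near Sema5b entered at 0.02002 CPKM and chr2:183586678-183587893 near Arfip1 stayed out at 0.01997. At the limit between cortex and hippocampus, chr10:58384548-58386198 near Wscd1 entered at 1.995-fold apart and chr2:189193250-189195650 near She stayed out at 2.0002-fold.

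Because the rule used every library, it was also applied to the libraries of 1 treatment and its choice tested in the libraries of the other (limma on log2(CPKM + 0.05), Benjamini-Hochberg over all TAPEs at 0.02 CPKM in the choosing libraries). Of 551 TAPEs chosen in the 10 vehicle libraries, 120 (21.8%) were higher in cortex and hippocampus than in striatum in the 9 KCl libraries at an adjusted p under 0.05, and 0 were lower, against a background of 4.76% of 5438 TAPEs higher. Of 548 chosen in the KCl libraries, 162 (29.6%) were higher in the vehicle libraries and 1 was lower, against 8.84% of 4953. For the TAPEs chosen in this way, the region difference recurred, in part, in the libraries of the other treatment. Only 313 of the 551 and 289 of the 548 are among the 478 members, whose own rule used all 19 libraries. The members as a group were therefore not tested here. The labels do not tell whether the vehicle and KCl wells came from different dams, so these need not be separate samples. Both backgrounds include the chosen TAPEs. In the KCl libraries 295 of the 551 (53.5%) again had both pallial means at 2 times striatum or more, against 19.0% of all, and 185 TAPEs met the rule in both treatments. For single members the rule was less steady: 241 of the 478 met it each time 1 of the 19 libraries was left out.

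A few strong TAPEs held much of the signal. The 12 of highest mean held 25.8% of the 96004 reads in members. In 11 of the 12 all cortical and hippocampal libraries lay above all striatal ones, against 1.91% of the 5017 TAPEs. That count, too, repeats the contrast of the rule. Strongest was chr8:28841568-28844421, which held 8.94% of the reads. Its nearest gene start was Spata19 at 388 kb. Its vehicle values were 2.83, 3.26 and 2.81 CPKM in cortex, 5.55, 5.55 and 5.69 in hippocampus, and 0.247, 0.353, 0.206 and 0.363 in striatum. Its KCl values were 2.09, 2.64 and 3.17 in cortex, 4.91, 4.89 and 5.45 in hippocampus, and 0.225, 0.284 and 0.168 in striatum. Hippocampus was above cortex in every library, and both were far above striatum. In the authors' deposited table its highest correlation over the 19 libraries was with Opcml (r = 0.87), a gene for a cell adhesion protein 610649 bases away.

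Others of the 12 lay in pairs or runs. The neighbours chr2:12593842-12597913 and chr2:12591527-12593062, 79.2 and 75.6 kb from Tmem161b, had means of 0.805 ± 0.0962 and 0.595 ± 0.0594 CPKM in cortex (SD, n = 6), 0.944 ± 0.119 and 0.744 ± 0.118 in hippocampus (n = 6), and 0.398 ± 0.108 and 0.191 ± 0.0902 in striatum (n = 7). Tmem161b RNA itself went the other way, being lower in cortex and hippocampus than in striatum by 1.12 SD of its profile (exact permutation test, adjusted p = 0.0287). The TAPE chr10:63551151-63553948, 53.2 kb from Bhlha9, had 0.587 ± 0.0985 in cortex, 1.04 ± 0.0684 in hippocampus and 0.210 ± 0.0449 in striatum. The TAPE chr11:38873452-38874789, 147 kb from Zfp600, was the steepest of the 12, with 0.662 ± 0.116 in cortex, 0.491 ± 0.184 in hippocampus and 0.0404 ± 0.0471 in striatal libraries, 3 of which had no read. The rest of the 12 were near Ccdc28a (77.5 kb), Plch1 (46.6 kb), LOC300308 (618 and 628 kb), LOC102554748 (82.7 and 320 kb) and MGC116197 (247 kb), and 6 of the 12 had no gene start within 100 kb.

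Some members lay in runs on the chromosomes. When neighbours less than 100 kb apart were joined, 191 members fell into 61 runs of 2 or more and 287 stood alone, and the 7 runs of 5 or more held 66 members. The share in runs, 39.96%, was near the 39.94% of the 691 TAPEs that were higher in striatum, and below the 63.6% of the denser set of 5017. Chromosome 7 held 71 members, 18.1% of its 393 TAPEs at 0.02 CPKM or more. Members overlapping their neighbour numbered 6 and share reads, so members of a run are not separate samples of the genome.

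The largest run, chr7:452004-785039, had 23 members of 37 TAPEs at 0.02 CPKM or more in its span, with the nearest gene start, LOC102554748, 72.1 to 403 kb away. The next, chr5:116218521-116396956, lay near the start of Nfia, the gene of a nuclear factor I protein active in neuronal and glial differentiation. In that span 14 of 15 TAPEs were members, at 25.1 to 200 kb from the start. Another, chr7:22361815-22401080, had 8 of 10, with LOC300308 at 612 to 649 kb. A smaller run held all 4 TAPEs at chr2:5552233-5565145, 16.4 to 26.5 kb from Nr2f1.

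Members were farther from genes than the 5017 TAPEs of like level, but not than TAPEs at large. The nearest gene start was a median of 85.0 kb away, against 53.0 kb for the 5017, 71.3 kb for the 691 higher in striatum and 90.3 kb for all 27538. It lay within 100 kb for 261 members (54.6%, against 65.2%, 58.9% and 52.8% of those sets), within 10 kb for 53 (11.1%, against 14% of the 5017) and beyond 500 kb for another 53 (11.1%, against 4.88% of the 5017 and 8.29% of all). The other 217 members had no gene start within 100 kb. Member length was a median of 1975.5 bp, against 1891 bp.

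The lists of genes used next were the pallial transcription factors, genes of glutamatergic transmission and projection neurons, GABAergic and striatal genes, activity-regulated genes, and 4 lists for other cells. Of the 55 TAPEs at 0.02 CPKM or more within 100 kb of a pallial transcription factor gene, 24 (43.6%) were members, where members are 9.53% of all such TAPEs. For glutamatergic genes the share was 5 of 39 (12.8%), for activity-regulated genes 6 of 59 (10.2%) and for GABAergic and striatal genes 1 of 37 (2.70%). The shares near astrocyte and progenitor genes (4 of 12, 33.3%) and oligodendrocyte lineage genes (4 of 16, 25.0%) were also above 9.53%, so a raised share was not particular to the pallial list. The 24 TAPEs sat near 12 of the 53 transcription factor genes in the table, and 12 of the 24 came from the Nfia and Nr2f1 loci alone.

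Bhlhe22, a bHLH repressor of projection neurons, had the largest ratio over striatum among those of these members that had striatal reads. The TAPE chr2:102680053-102681830, 4.6 kb from its start, had 0.298, 0.271 and 0.276 CPKM in cortical vehicle libraries and 0.279, 0.0851 and 0.189 after KCl. In hippocampus it had 0.318, 0.262 and 0.122, then 0.207, 0.238 and 0.206. In striatum 4 of 7 libraries had no read and the highest had 0.0207, so the groups did not overlap and the lower pallial mean was 31.1 times the striatal one.

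Nr2f1 encodes the nuclear receptor COUP-TFI, which patterns the cortex. Of its 4 members, chr2:5561912-5565145 at 16.4 kb was the highest, with 0.153 to 0.330 CPKM over the 12 cortical and hippocampal libraries and 0.0107 to 0.0415 over the 7 striatal ones. Its paralogue Nr2f2 had a member at 4.1 kb (chr1:131463665-131465448) with 0 reads in all 7 striatal libraries and 52 in the others. With 3 reads taken as the most that 0 allows, cortex was 8.55-fold above that floor, or 4.78-fold without cortical KCl replicate 1, its highest library. Folds over striatum repeat the contrast of the rule, and they would be smaller if mates were counted separately. Neurog2, the proneural factor of pallial progenitors, had a member at 5.8 kb (chr2:231967491-231969113), also with 0 striatal reads. Cortex was 13.1-fold above the same floor there. The Nr2f2 and Neurog2 members were so low that 1 cortical vehicle library each had no read either.

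Neurod2, a factor of maturing glutamatergic neurons, lay 5.7 kb from chr10:86286983-86289742, with means of 0.0804 ± 0.0359 CPKM in cortex, 0.0562 ± 0.0285 in hippocampus and 0.0172 ± 0.010 in striatum. The groups overlapped, since 1 cortical vehicle library was at 0.0116. Ppp1r1b, which encodes the striatal phosphoprotein DARPP-32, was 15.4 kb from the same TAPE. Zbtb18, a repressor needed in cortical neurons, had members at 13.7 and 21.3 kb. The nearer, chr13:95600586-95606085, ranged from 0.0257 to 0.138 CPKM in cortex and hippocampus and stayed at or below 0.00697 in striatum. Nfia had 8 members within 100 kb, the closest being chr5:116394240-116396956 at 0.125 ± 0.0420 CPKM in cortex, 0.153 ± 0.0695 in hippocampus and 0.0526 ± 0.0138 in striatum.

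**Figure D2:**
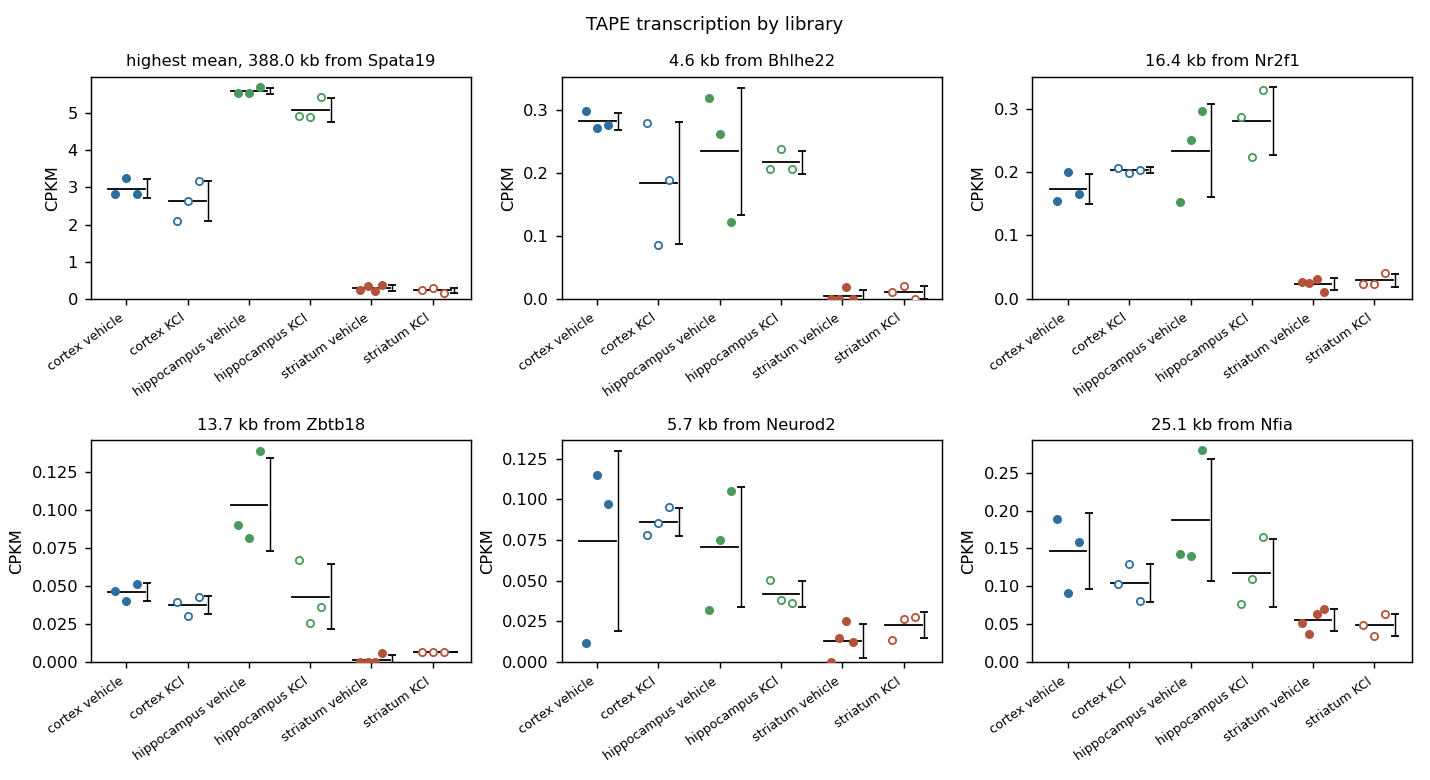
Level in CPKM of 6 shared TAPEs in each library, by region and treatment: the member of highest mean and members near Bhlhe22, Nr2f1, Zbtb18, Neurod2 and Nfia. Points are libraries (filled, vehicle; open, KCl), lines are means and bars are SD, and each panel has its own axis from 0. Cortical and hippocampal points lie above all striatal points in every panel but that of Neurod2, where 1 cortical vehicle library is at 0.0116 CPKM.

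The remaining list members were weaker. Pax6, a progenitor factor, had one at 6.6 kb, Bhlhe40 had members at 47.4 and 82.0 kb, Pou3f2 at 47.4 kb, Nr4a2 at 64.0 kb and Emx2, a dorsal patterning factor, at 74.6 kb. The glutamatergic list added the kainate receptor gene Grik4 (78.7 kb), the Nogo receptor gene Rtn4r (76.5 and 91.9 kb) and Wnt7b (65.1 and 97.6 kb). No member lay within 50 kb of a gene of the glutamatergic list.

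The nearest gene to the Wnt7b member chr7:126529701-126531889 was a let-7 microRNA gene, Mirlet7c2 at 59.4 kb, with Mirlet7b at 59.8 kb, and a further let-7 gene, Mirlet7i, lay 93.3 kb from a member elsewhere on chromosome 7. Their 5p products are shown because the 3 genes share 1 seed. Capitals mark the seed, bases 2 to 8 (RefSeq, GRCr8).
let-7c-5p: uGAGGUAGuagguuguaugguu
let-7b-5p: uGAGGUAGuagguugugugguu
let-7i-5p: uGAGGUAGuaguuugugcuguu
Total RNA libraries read the precursor, not the mature microRNA. Mirlet7c2 was higher in cortex and hippocampus by 1.04 SD of its profile (exact permutation test, adjusted p = 0.0440), while Mirlet7b and Mirlet7i did not pass (0.99 SD, adjusted p = 0.0630, and 0.25 SD, adjusted p = 0.696).

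Whether genes near members followed the same pattern was asked of gene RNA, a measure the rule did not use although it comes from the same libraries. The deposited table gives gene RNA only through its correlations with TAPEs. Each gene's profile over the 19 libraries, in SD units and without its absolute level, was therefore solved from those correlations, giving 16733 profiles for 17715 genes. The mean of the 12 cortical and hippocampal libraries was set against that of the 7 striatal libraries with an exact two-sided permutation test. It ran over 50388 arrangements and was adjusted over all 16733 genes. A gene high in cortex alone or in hippocampus alone can pass it, so "higher in cortex and hippocampus" refers to the pooled mean.

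Of the 579 such profiles of genes within 100 kb of a member, 212 (36.6%) were higher in cortex and hippocampus, against a background of 25.8% of all genes, and 122 (21.1%) were higher in striatum, against 27.1%. The share rose with nearness. It was 53.3% of 137 genes within 25 kb, 37.0% of 135 at 25 to 50 kb, 29.0% of 307 at 50 to 100 kb and 25.3% of 585 at 100 to 200 kb. Genes within 100 kb of all 5017 TAPEs gave 26.6%. Without the cortical library with the striatal label, 213 of the near genes were higher in cortex and hippocampus and 123 in striatum. The median difference fell from 1.18 SD within 25 kb to 0.23 SD at 100 to 200 kb, against 0.09 SD over all genes. TAPE and gene come from the same libraries, and whether reads running on from a gene entered a TAPE was not tested.

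**Figure D3:**
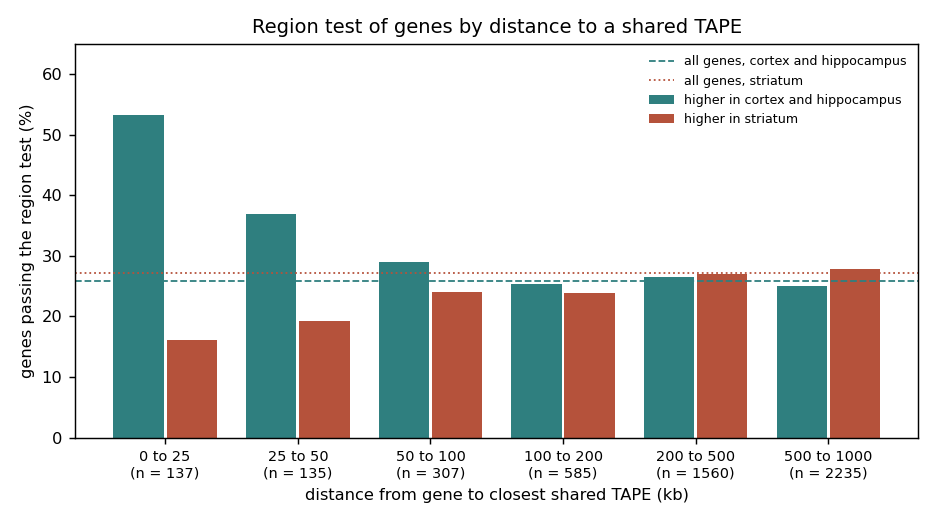
Share of genes that passed the region test (exact permutation test, adjusted p under 0.05), by distance in kb from the gene start to the closest shared TAPE, with the number of genes in each bin. Bars are genes higher in cortex and hippocampus or higher in striatum, and lines are the shares over all 16733 genes (25.8% and 27.1%). The first bar stands at 53.3% and the shares are near the lines from 100 kb on.

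In the contrast of cortex and hippocampus with striatum, which also chose the TAPEs, most named genes went the way of the TAPE beside them. Within regions they did so unevenly. Deposited r in cortex and in hippocampus was 0.05 and −0.85 for Neurod2, 0.00 and −0.09 for Bhlhe22 and 0.50 and −0.07 for Neurog2. It was 0.96 and 0.37 for Nr2f1, 0.60 and 0.31 for Nfia and 0.20 and 0.12 for Zbtb18, each with its closest member. Of the 10 pallial transcription factor genes near members with a solved profile, Zbtb18 (2.01 SD), Bhlhe22 (2.01 SD), Nr2f1 (1.99 SD), Neurod2 (1.96 SD), Nfia (1.87 SD) and Neurog2 (1.87 SD) were higher in cortex and hippocampus, all at the exact permutation test's adjusted p of 0.000101, which comes from the smallest p that the arrangements allow. Bhlhe40 (1.60 SD, adjusted p = 0.000461) and Emx2 (1.40 SD, adjusted p = 0.00339) were also higher by that permutation test. Pou3f2 (−0.30 SD, adjusted p = 0.637) and Nr4a2 (0.43 SD, adjusted p = 0.499) did not pass it. Pou3f2 was high in cortex (1.08 ± 0.297 SD units) and lowest in hippocampus (−1.30 ± 0.124), so its profile was not that of its TAPE. Profiles of Pax6 and Nr2f2 were not solved. In the deposited correlations over all 19 libraries, Pax6 had an r of −0.23 with its member, so it did not follow it, and Nr2f2 had 0.54.

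Of the glutamatergic genes, Wnt7b (1.99 SD), Rtn4r (1.94 SD) and Grik4 (1.16 SD) were each higher in cortex and hippocampus, with adjusted p of 0.000101, 0.000101 and 0.0191 in the exact permutation test. Ppp1r1b was the opposite, lower by 2.02 SD at 0.000101 in the same permutation test, and so ran against the TAPE it shares with Neurod2. In the lists as wholes, 26 of 49 pallial transcription factor genes (53.1%) were higher in cortex and hippocampus and 8 (16.3%) in striatum. For glutamatergic genes it was 36 of 70 (51.4%) and 18 (25.7%), and for GABAergic and striatal genes 3 of 45 (6.67%) and 37 (82.2%). Over all genes the shares were 25.8% and 27.1%. The pallial factors had a mean standardised level of 0.46 to 0.67 SD in cortical, −0.15 to −0.01 in hippocampal and −0.48 to −0.36 in striatal libraries. Among single genes of the lists, Gad1 and Gad2, markers of GABAergic neurons, and Drd1 and Drd2, markers of striatal ones, were higher in striatum. The pallial markers Neurod6, Emx1, Tbr1 and Slc17a7 were higher in cortex and hippocampus. These are examples, and each list also held genes that went the other way.

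**Figure D4:**
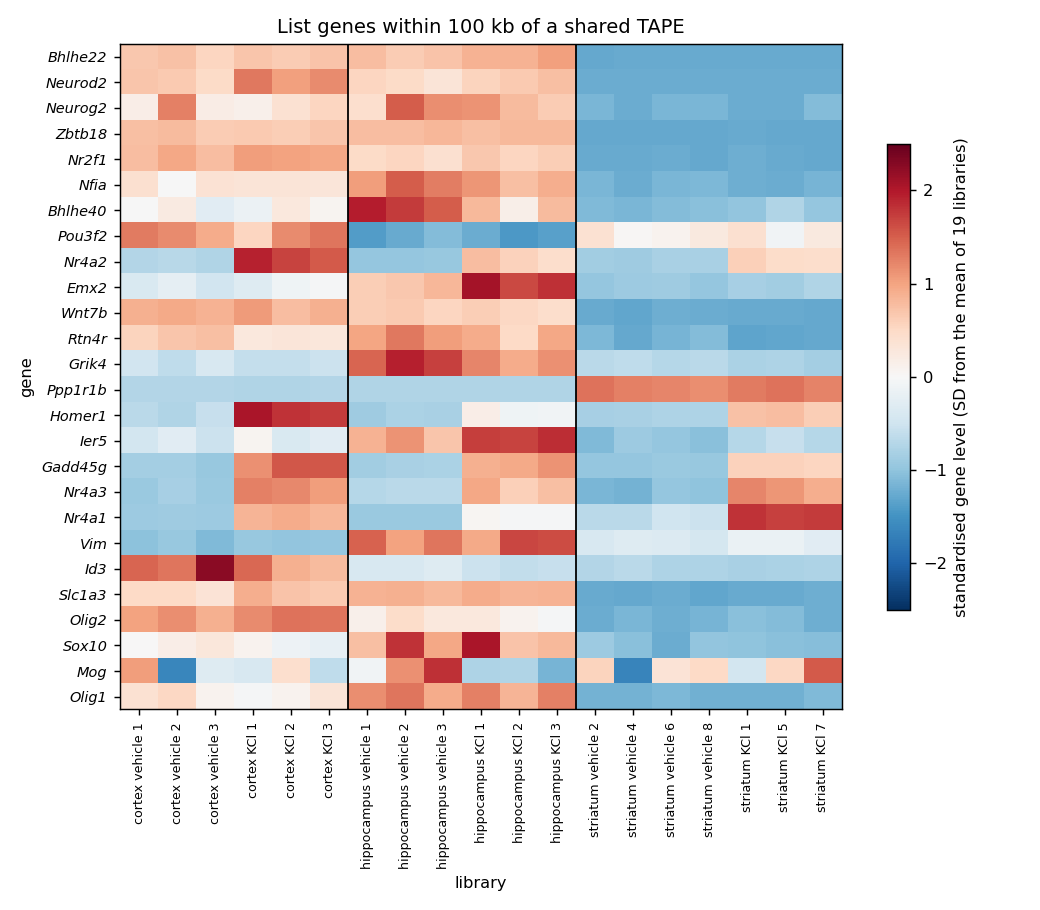
Standardised level of 26 list genes with a start within 100 kb of a shared TAPE (rows) in the 19 libraries (columns). Colour gives SD units above (red) or below (blue) the gene's mean, and vertical lines separate cortex, hippocampus and striatum. Bhlhe22, Neurod2, Zbtb18 and Nr2f1 are red in all 12 cortical and hippocampal libraries and blue in all 7 striatal ones, Ppp1r1b is the reverse, and Nr4a2, Nr4a3 and Gadd45g are red in all KCl libraries.

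Markers of other cells moved with the regions too, beside 25.8% of all genes higher in cortex and hippocampus and 27.1% in striatum. Of 22 astrocyte and progenitor genes 16 were higher in cortex and hippocampus and 2 in striatum, and their mean standardised level was 0.38 to 0.53 SD in cortical, 0.29 to 0.43 in hippocampal and −0.81 to −0.69 in striatal libraries. Of 14 oligodendrocyte lineage genes 8 were higher and 1 lower (0.43 to 1.16, −0.40 to 0.09 and −0.75 to −0.13 SD). Of 15 microglial, vessel and meningeal genes 6 were higher (−0.22 to 0.33, 0.32 to 0.76 and −0.67 to −0.14 SD). Of 7 Cajal-Retzius and choroid genes 4 were higher and 2 lower in the pooled test (−0.66 to −0.25, 0.47 to 1.01 and −0.38 to −0.05 SD). For this last list hippocampus was above striatum and cortex was not. The profiles hold no absolute level, so which markers are at 0 is not known here. The part of these cells in the members' levels was not tested.

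Some members lay beside glial genes. The TAPE chr11:31396294-31398827, 8.0 kb from Olig2 and 30.8 kb from Olig1, transcription factors of oligodendrocyte precursors, had 0.261 to 0.476 CPKM in cortex and hippocampus and 0.0800 to 0.219 in striatum, with no overlap. Olig2 (1.83 SD) and Olig1 (1.85 SD) were higher in cortex and hippocampus, each at an adjusted p of 0.000101 in the exact permutation test. Members also lay near Sox10 (14.5 and 35 kb), Mog (27.2 kb), the glutamate transporter gene Slc1a3 (78.9 kb), Id3 (27.5 kb) and Vim (8.3 kb). Of the TAPEs at 0.02 CPKM or more near the microglial and Cajal-Retzius lists, 0 of 5 and 0 of 3 were members.

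TAPE and gene RNA were also set against each other in the authors' deposited correlations. Over the 674 pairs of a member and a gene within 100 kb, r over all 19 libraries had a median of 0.22 and passed 0.5 in 23.7%, against 0.09 and 13.7% for all 5017 TAPEs. This r holds the region difference that chose the members. Within cortex alone the median was 0.02 (0.02 for all) and within hippocampus 0.05 (0.04 for all), with 19.1% and 18.1% of pairs above 0.5 against 18.5% and 19.0%. Within a region the values of members and of all TAPEs were thus close. The gene of highest r over 19 libraries was also the nearest gene for 153 members (32.0%, against 19.4% of the 5017).

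In 31 of 633 pairs with both values, r was above 0.5 in cortex and in hippocampus, and in 19 it was below −0.5 in both. With 6 libraries a region, 3 of them treated, these are descriptions. Pairs with a high r in both regions included Fbxl4, a mitochondrial F-box protein gene, with the TAPE at chr5:36634978-36636887 at 80.8 kb (deposited r = 0.87 in cortex, 0.83 in hippocampus and −0.03 in striatum). The member 91.9 kb from Rtn4r had 0.77, 0.75 and 0.00 with Zdhhc8 and 0.74, 0.60 and 0.34 with Rtn4r. Plch1 (0.69, 0.62 and 0.31) and Bhlhe40 (0.59, 0.53 and 0.00) followed theirs less closely.

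Few KCl calls were made, among members as among all TAPEs. In limma on log2(CPKM + 0.05), adjusted over 5017 TAPEs, 0 of 478 members passed an adjusted p under 0.05 in cortex, against a background of 0.0199%. In hippocampus 0 passed against 0%, and in striatum 0 against 0.0598%. At an unadjusted p under 0.05 there were 39 members in cortex against a background of 8.37% (14 up and 25 down, against 3.27% and 5.1%). Hippocampus had 56 against 9.41% (20 up and 36 down, against 3.17% and 6.24%). Striatum had 37 against 11.6% (15 up and 22 down, against 3.65% and 7.91%). Counts on recovered reads (voom) passed 3 members in cortex, 0 in hippocampus and 0 in striatum, where 13, 0 and 18 of all 5017 TAPEs passed. Counts were also simulated for the TAPEs at 0.02 CPKM or more, each at its mean over the 19 libraries and with an assumed spread. Reads were drawn in pairs, as if mates were counted separately, and single reads were not simulated. In these counts the cortical test with 6 libraries called 4% of 2-fold and 30% of 4-fold changes. The joint test with 12 called 28% and 78%. The simulation held no region difference, so members need not share these rates. A lack of calls does not show a lack of change.

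With cortex and hippocampus fitted together (6 against 6 libraries, region as a term), 2 members passed, against a background of 0.339% (1 up and 1 down, against 0.239% and 0.0997%). At an unadjusted p under 0.05 there were 63 against 12.1% (20 up and 43 down, against 3.63% and 8.43%). One of the called members rose. The TAPE chr1:52845759-52847659, 48.1 kb from Tbxt, had 0, 0 and 0 CPKM in cortical vehicle libraries and 0.0453, 0.168 and 0.0461 after KCl, and in hippocampus 0.0186, 0 and 0 against 0.0921, 0.0371 and 0.0701. All 7 striatal libraries had no read. The joint change was 1.19 ± 0.24 (log2, SE; limma adjusted p = 0.0400), up in 6 of 6 KCl libraries over every vehicle library of their region. With 3 reads as the floor over the cortical vehicle libraries, the cortical rise was 11.1-fold, or 5.86-fold without cortical KCl replicate 2, the highest library. The TAPE had 53 reads in all. Its mean passed the 0.02 CPKM floor only through its KCl libraries. The call, the separation and the fold therefore reuse the values that admitted it and are descriptions.

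The other fell. The TAPE chr5:36634978-36636887, 47.4 kb from Pou3f2, had 0.0504, 0.0722 and 0.101 CPKM in cortical vehicle libraries and 0, 0 and 0 after KCl. In hippocampus it had 0.0648, 0.0541 and 0.0379, then 0, 0.0185 and 0.0174. Neither region overlapped. The joint change was −1.01 ± 0.21 (log2, SE), with a limma adjusted p of 0.0410. Cortical KCl was 8.27-fold lower than cortical vehicle by the same floor, on 61 reads in all. In striatum the change was −0.07 ± 0.23 (limma adjusted p = 0.935), and its difference from the other regions did not pass (0.94 ± 0.33, limma adjusted p = 0.434). Pou3f2 RNA did not pass a test of KCl (−0.07 SD, exact permutation test within regions, adjusted p = 0.738), while Fbxl4 fell with KCl by 1.60 SD (adjusted p = 0.00187 in that permutation test). The mean of chr5:36634978-36636887 passed the 0.02 CPKM floor only through its vehicle libraries. Its call, the lack of overlap and the fold therefore reuse the values that admitted it and are descriptions. Both calls rest on few reads, and the level floor used the same libraries, so a TAPE can enter through the treatment where it is high. Of the 12 fits without 1 library, that without hippocampal KCl replicate 2 kept both, that without cortical KCl replicate 1 kept the first, and the others kept neither. The change itself stayed near its size, at 0.99 to 1.29 for the first and −1.09 to −0.91 for the second, with limma adjusted p from 0.0389 to 0.0989 and from 0.0469 to 0.102. Voom on recovered reads called both (adjusted p = 1.36e-05 and 0.000986), again on the values that admitted them.

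**Figure D5:**
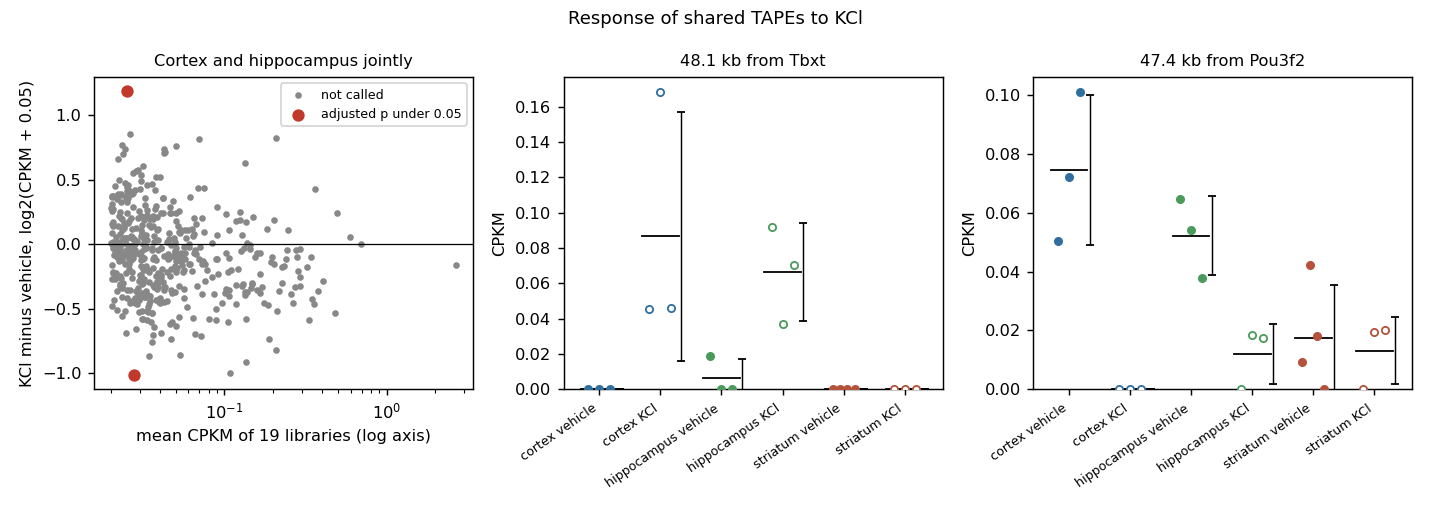
Left, KCl minus vehicle in cortex and hippocampus jointly, on the log2(CPKM + 0.05) scale, against mean CPKM (log axis) for the 478 shared TAPEs, with the 2 that passed an adjusted p under 0.05 in red. Centre and right, CPKM of those 2 in each library (filled, vehicle; open, KCl; lines are means and bars SD), the first higher after KCl by 1.19 and the second lower by 1.01 on the joint log2 scale.

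A further member was singled out after its values were seen. The TAPE chr18:14755646-14759686, 286 kb from Dtna, had 0.171, 0.0819 and 0.154 CPKM in cortical vehicle libraries and 0.491, 0.429 and 0.398 after KCl, with no overlap. In hippocampus it had 0.219, 0.230 and 0.269 and then 0.346, 0.240 and 0.276, and in striatum 0.0569 to 0.124 throughout. The cortical change of 1.43 ± 0.24 (log2, SE) had a limma adjusted p of 0.311 over 5017 TAPEs and 0.0191 when only TAPEs at 0.05 CPKM or more were tested. Its difference from hippocampus did not pass (−1.21 ± 0.34, limma adjusted p = 0.428).

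Over all members the median change was near that of other TAPEs. The median log2 change with KCl in cortex was −0.06, in hippocampus −0.13, in striatum −0.07 and jointly −0.08, against −0.07, −0.10, −0.11 and −0.08 over the 5017. Of the 12 members of highest mean, 9 had a joint change below 0 and 3 above, from −0.58 to 0.43. In the main limma fit their adjusted p was 0.111 or more, and 5 had an unadjusted p under 0.05, against 12.1% of the 5017. Under 7 other settings, chr9:8894581-8898782 passed in 2, and chr7:22391023-22396688, chr8:28841568-28844421 and chr7:22383251-22385415 in 1 each, all lower after KCl. Their lowest adjusted p was 0.00159, 0.00192, 0.0158 and 0.0415 (limma or voom), and the rest passed in none. Differences between the KCl changes of cortex and hippocampus passed for 0 members in limma, against 0% (33 at an unadjusted p under 0.05 against 6.44%, 15 higher and 18 lower against 2.99% and 3.45%). Those between striatum and the other regions passed for 0 in limma, against 0.0598% (0.0399% higher and 0.0199% lower), with 25 at an unadjusted p under 0.05 against 7.69% (16 higher and 9 lower, against 3.55% and 4.15%). In voom these counts were 0 and 0.

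Genes near members responded to KCl about as often as genes at large. Of the 579, 119 passed, 20.6%, against a background of 20.6%, with 41 higher against 5.97% and 78 lower against 14.7% (exact permutation within regions, 14000 arrangements, adjusted over 16733 genes). Of the activity-regulated list 48 of 50 solved genes were higher after KCl wherever they lay, the 6 near a member among them: Nr4a3 (1.89 SD), Gadd45g (1.87 SD), Nr4a2 (1.78 SD), Nr4a1 (1.68 SD) and Homer1 (1.62 SD), each at an adjusted p of 0.00187 in that permutation test, and Ier5 (0.47 SD, adjusted p = 0.00417 in the same permutation test). The members beside them did not pass in any limma test of KCl. The Homer1 member, 4.9 kb from its start, had 0.0506, 0 and 0.0469 CPKM in cortical vehicle libraries and 0.119, 0.0265 and 0 after KCl, so its groups overlapped.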

How the data were processed

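Reads were trimmed with Trim Galore 0.4.5, aligned to Rn6 with STAR and indexed with SAMtools 1.9 by the authors, who called TAPEs in SeqMonk, on merged libraries, as open intergenic regions with reads from both strands. The deposited table gives 1 RPKM value (called CPKM) per TAPE and library, coordinates on Rn6, distances from TAPE centre to gene start within 1 Mb, and a Pearson r score per TAPE and gene, over all libraries and within regions, computed by the authors. All values were whole multiples of 1 read (100% within 0.01 reads), which gave library totals. They exceed the depth stated in the labels and may count mates separately, so intervals and floors cover counting error only. If mates were counted separately, the floors are too low and the folds over them too large. KCl was tested with limma 3.58.1 (R 4.3.3; log2(CPKM + 0.05), trend, Benjamini-Hochberg over 5017 TAPEs), and single genes by exact permutation on profiles solved from the deposited r. Both were tested on simulated data, where all 285 profiles solved of 300 were exact. Gene tests of KCl and the choice in 1 treatment tested in the other were added after the data were seen. Samples were grouped by title. Members and lists were chosen with earlier results of these data known. Named were the 12 members of highest mean, those called with KCl, the closest to each gene of the pallial lists, those at each limit and the 3 largest runs.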

Additional observations from a re-analysis of the deposited data

Results flagged for a closer look

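Among the members of highest mean and those discussed for KCl, 60 sets of libraries (all libraries of each region, and the 4 striatal vehicle libraries) were examined and 4 held a library far from the others by Dixon's test, which flags about 1 set in 20 by chance. For chr10:63551151-63553948, hippocampal KCl replicate 3 was at 1.17 CPKM, with the next at 1.04. For chr1:13471509-13474201, hippocampal vehicle replicate 2 was at 0.915 CPKM, with the next at 0.600. For chr7:699758-702587, cortical vehicle replicate 3, the library with the striatal tissue label, was at 0.787 CPKM, with the next at 0.459. For chr1:52845759-52847659, called with KCl, cortical KCl replicate 2 was at 0.168 CPKM, with the next at 0.0461, and without that library its joint log2 change was 0.99 (limma adjusted p = 0.0664).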

How the results depend on the processing

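Membership moved with its thresholds: 161 TAPEs at a mean of at least 0.05 CPKM, 1063 at 0.01, 719 at 1.5 times striatum and 252 at 3 times, and 460 to 533 without 1 library. KCl calls in cortex (0) became 1 at 0.05 CPKM, 1 with each library centred on its median and 3 with voom. Joint calls (2) became 1 with a pseudocount of 0.01, 0 with 0.5, 0 with no filter, 6 at 0.05 CPKM (1 up, 5 down, where 42 of 1870 TAPEs passed), 12 with voom (3 up, 9 down, where 71 of 5017 passed) and 0 to 2 without 1 library. Centring also gave 2, both up: chr5:36634978-36636887 was lost (adjusted p = 0.0504) and chr18:14755646-14759686 was gained (adjusted p = 0.0363, limma). The fit with replicate number as a block gave 0 joint calls, and 0 in cortex. Deviations of same-numbered libraries correlated at −0.02 to 0.01 within a region. With few reads per TAPE this could miss a shared origin, so whether the numbers pair the libraries is not known. No blocked fit was made for striatum, where vehicle and KCl share no number. Calls in hippocampus, striatum and both differences were 0 in every fit without 1 library. Genes near members higher in cortex and hippocampus numbered 205 to 216 without 1 library and 168 in vehicle libraries alone, and those higher in striatum 116 to 124 and 102.

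Depth and library number both limit these results: a member has a median of 4.5 reads per library, and groups hold 3 or 4 libraries.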
